A study of Mus musculus with 12 samples.

Results

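The 8 genes described here, *Pi16*, *Dpt*, *Clec3b*, *Cd34*, *Scara5*, *Dpp4*, *Ly6a* and *Ly6c1*, are markers of adventitial fibroblasts, and were taken by gene symbol from the 40760 genes counted in Pdgfra+ cells sorted from mouse lung. All 8 were found in the deposited tables, and all 8 passed the filter on low counts that left 17418 genes for testing. The cells were sorted by flow cytometry for CD140a, the protein encoded by *Pdgfra*, from lungs of male mice, and there were 12 bulk RNA-seq libraries, 3 in each of 4 groups. WT vehicle came from wild-type mice given vehicle, *Pear1*-/- vehicle from *Pear1*-deficient mice given vehicle, WT bleo from wild-type mice given bleo (bleomycin, a DNA-damaging drug that injures the lung and is followed by fibrosis) as an aerosol into the trachea, and *Pear1*-/- bleo from *Pear1*-deficient mice given bleo. Per the study's methods, the *Pear1*-/- mice carry a whole-body knockout-first allele on the C57BL/6 background, in which a cassette with a splice acceptor and a stop to transcription sits in an intron of *Pear1*. The labels do not give the dose, the day after bleo, the age of these mice or how many mice stand behind a library. Per its methods, the study used males aged 8 to 12 weeks unless otherwise indicated, and nothing else is indicated for these sorted cells. The methods also give several doses of bleo and a day for lung function and pathology, neither tied to these libraries. With the number of mice per library unknown, the p-values measure only the spread between these libraries, which may be technical.

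Adventitial fibroblasts lie in the loose connective tissue cuffs around the larger vessels and airways, and differ from alveolar fibroblasts, which line the alveolar walls and carry lipid-handling and matrix genes of their own. Cells high in *Pi16*, *Dpt* and *Ly6a* are known in many organs as a reservoir population of fibroblasts. The markers fall into 3 kinds: secreted proteins (*Pi16*, *Dpt*, *Clec3b*), receptors and enzymes of the cell surface (*Cd34*, *Scara5*, *Dpp4*), and small lipid-anchored surface proteins of the Ly6 family (*Ly6a*, *Ly6c1*). *Cd34*, *Ly6a* and *Ly6c1* are also made by endothelial cells, and *Dpp4* by T lymphocytes, so in a bulk library these counts need not all come from fibroblasts.

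Between 6702948 and 10447101 reads were counted per library. The normalized counts used below are the authors' counts after division by a size factor per library. A floor of 3 counts, which covers counting error only, lies far under the lowest value of any of the 8 markers, 201 normalized counts for *Dpp4*. Normalized counts of *Pear1*, the targeted gene, were 576, 545 and 519 in WT and 511, 501 and 547 in *Pear1*-/- mice given vehicle, and 256, 239 and 266 in WT and 355, 372 and 344 in *Pear1*-/- mice given bleo. The genotypes overlapped in vehicle. In bleo every library labelled *Pear1*-/- lay above every library labelled WT on this scale, which goes against the label. The log2 difference was 0.48 (adjusted p = 7.54e-05). Per 100 normalized counts of *Pdgfra* the order was reversed, at 19.0, 17.8 and 19.1 in WT bleo and 14.8, 15.7 and 14.3 in *Pear1*-/- bleo. There 74.7% of all genes tested were lower in every *Pear1*-/- bleo library than in every WT bleo library. The cause was not tested. The word genotype below means the deposited label, also where a direction is given. *Pdgfra*, the gene of the sorting marker, was itself lower after bleo, with log2 fold changes of -1.74 in WT and -0.80 in *Pear1*-/-, and higher by 0.80 in *Pear1*-/- bleo than in WT bleo. WT vehicle replicate 2 stood apart: the chi-square of its counts per degree of freedom, near 1 for counting noise alone, was 25.2 and 26.0 against replicates 1 and 3 of its own group, which gave 1.68 between them, and 1.81, 2.29 and 2.92 against the *Pear1*-/- vehicle libraries. *Pear1*-/- vehicle replicate 3 also stood apart, to a lesser degree, at 4.86 and 5.46 against replicates 1 and 2 of its group, which gave 1.48 between them. WT vehicle replicate 2 was thus closer to libraries labelled *Pear1*-/- than to its own group, which puts its label in doubt, and with it each WT vehicle mean and each fold change against WT vehicle. The labels were kept, and the results that this library moves most are given with and without it.

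In vehicle-treated cells, the markers were well above the floor in every library. Per kilobase of exon, which allows levels to be set side by side between genes, *Ly6a* was highest in WT vehicle at 2631 ± 981 normalized counts per kb (SD, n = 3), followed by *Dpt* at 2328 ± 475 and *Clec3b* at 1803 ± 96.4. *Pi16*, *Cd34* and *Ly6c1* formed a middle tier at 491 ± 117, 426 ± 73.0 and 389 ± 134 normalized counts per kb, within each other's spread. *Scara5* was at 254 ± 148 and *Dpp4* was lowest at 47.6 ± 2.95. Without WT vehicle replicate 2 the means of the other 2 libraries were 2064 for *Ly6a*, 2057 for *Dpt*, 1752 for *Clec3b*, 424 for *Pi16*, 384 for *Cd34*, 311 for *Ly6c1*, 168 for *Scara5* and 47.5 for *Dpp4*, in the same order. In WT bleo, *Ly6a* and *Dpt* still led at 1442 ± 21.2 and 933 ± 29.9 normalized counts per kb, *Ly6c1* came next at 349 ± 15.2, then *Clec3b* at 272 ± 18.1, while *Scara5* was lowest at 37.8 ± 2.17.

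The first question was how the markers differ after bleo in each genotype. In WT mice, 6 of the 8 markers were lower in bleo than in vehicle (adjusted p under 0.05) and none was higher. Across all genes tested 67.9% were called in this comparison, 36.5% as lower, so the count is read against a background in which many genes fell. With a fold change above 2 as well, the criterion of the study, 5 of the 8 were lower, against 23.3% of all genes. In *Pear1*-/- mice, 7 of the 8 were lower in bleo, against 33.1% of all genes (62.2% called in either direction), and the same 5 markers, *Pi16*, *Dpt*, *Cd34*, *Scara5* and *Clec3b*, passed the fold criterion, against 19.3%. The median log2 fold change of the 8 markers was -1.49 in WT and -1.69 in *Pear1*-/-, beside -0.071 and -0.048 over all genes tested. In bulk libraries, fewer cells of a type and less RNA per cell cannot be told apart.

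**Figure D1:**
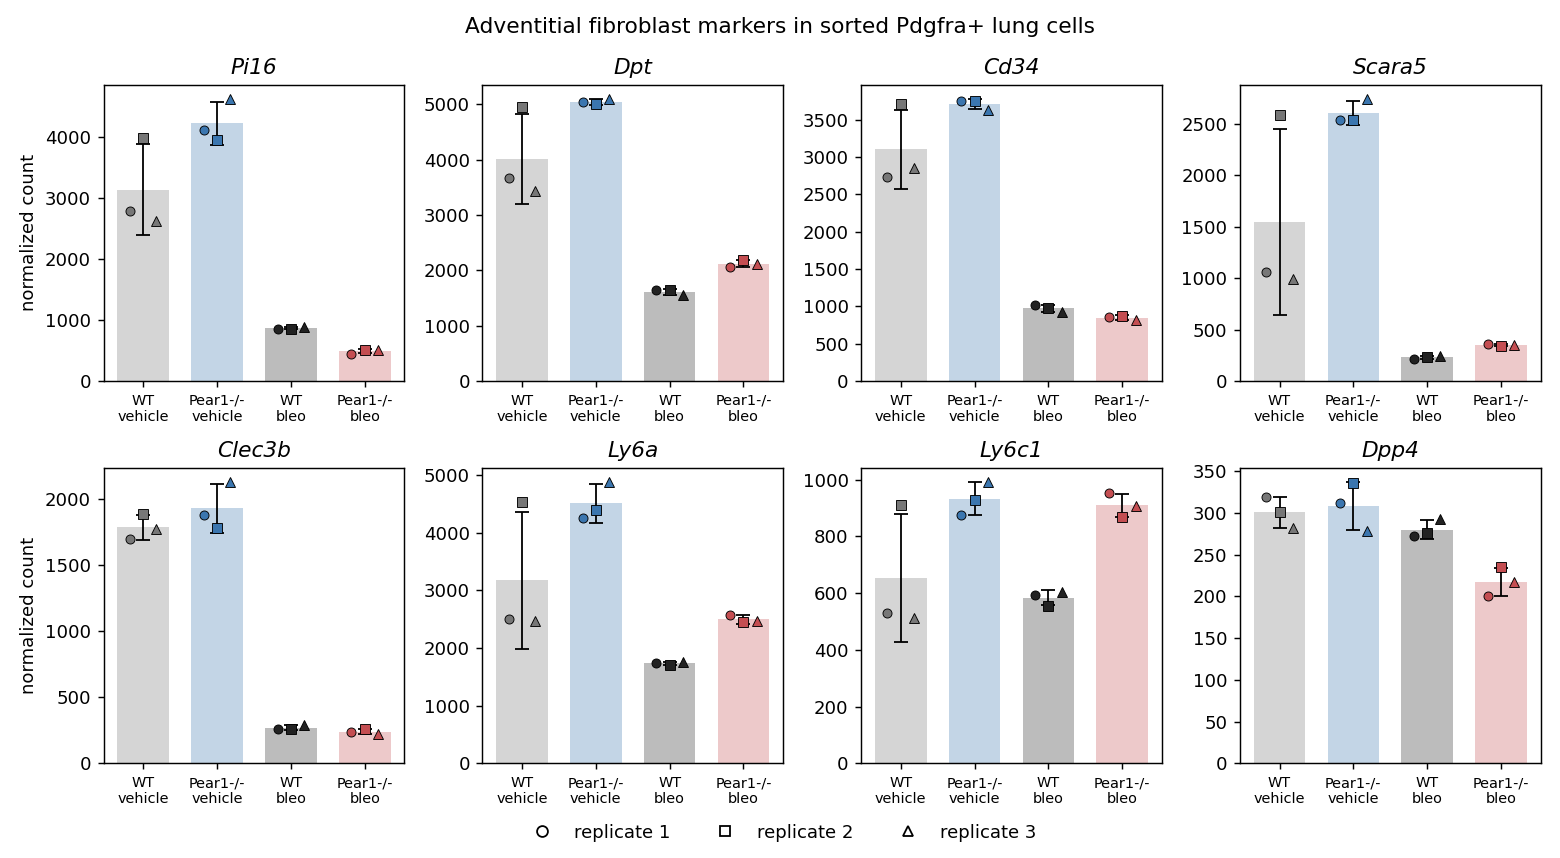
Normalized counts (vertical axis, from 0) of each adventitial fibroblast marker in the 4 groups; points are libraries, with the replicate given by the symbol, bars are group means and error bars are SD (n = 3). In *Pi16*, *Dpt*, *Cd34*, *Scara5* and *Clec3b* all 6 bleo libraries lie below all 6 vehicle libraries. The share of all genes so separated was not computed, and 36.5% were called lower with bleo in WT and 33.1% in *Pear1*-/-. The square of WT vehicle replicate 2 lies near the *Pear1*-/- vehicle libraries in most panels.

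Among the secreted proteins, *Pi16* (ENSMUSG00000024011, chr17:29317680-29330593 in GRCm38), a peptidase inhibitor whose gene marks the reservoir fibroblasts, had 2779.6, 3979.7 and 2617 normalized counts in WT vehicle and 847, 853 and 878 in WT bleo. In *Pear1*-/- vehicle it had 4112, 3935 and 4614 and in *Pear1*-/- bleo 447, 498 and 511. The bleo libraries lay below every vehicle library, and those of *Pear1*-/- bleo were the lowest of all. The log2 fold change with bleo was -1.85 (standard error 0.124, adjusted p = 1.67e-09) in WT, a 3.61-fold decrease, and -3.12 (standard error 0.130, adjusted p = 6.11e-12) in *Pear1*-/-, an 8.68-fold decrease.

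*Dpt* (ENSMUSG00000026574, chr1:164796644-164824266), which encodes dermatopontin, a small matrix protein that binds decorin and helps collagen fibrils assemble, had 3669.7, 4948 and 3423 normalized counts in WT vehicle and 1637, 1639.8 and 1549 in WT bleo. It had 5039, 4996 and 5094 in *Pear1*-/- vehicle and 2060.0, 2178 and 2115 in *Pear1*-/- bleo. Here the order of the bleo groups was the opposite of that of *Pi16*, with every *Pear1*-/- bleo library above every WT bleo library. On the log2 scale the change with bleo was -1.31 (standard error 0.0981, adjusted p = 1.19e-09) in WT and -1.25 (standard error 0.0976, adjusted p = 3.05e-09) in *Pear1*-/-.

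*Clec3b* (ENSMUSG00000025784, chr9:123150946-123157432), which encodes tetranectin, a secreted lectin-like protein that binds plasminogen, had 1699, 1889 and 1778 normalized counts in WT vehicle and 259.9, 259 and 291 in WT bleo. It had 1879.6, 1779 and 2134 in *Pear1*-/- vehicle and 242, 260.5 and 221 in *Pear1*-/- bleo. The vehicle groups overlapped, the bleo groups overlapped, and no bleo library came near a vehicle library. The change with bleo, in log2, was -2.72 (standard error 0.0901, adjusted p = 3.86e-15) in WT, a 6.58-fold decrease, and -3.00 (standard error 0.0908, adjusted p = 2.24e-15) in *Pear1*-/-, a 7.97-fold decrease. Of the 8 markers, WT vehicle replicate 2 differed least from replicates 1 and 3 of its group in *Dpp4*, followed by *Clec3b*, where the ratio of its normalized count to their mean was 1.09.

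Among the surface receptors, *Cd34* (ENSMUSG00000016494, chr1:194938819-194961279), a sialomucin of stromal, blood-forming and endothelial cells, had 2736, 3713 and 2857 normalized counts in WT vehicle and 1013, 981 and 918 in WT bleo. It had 3748, 3753 and 3636 in *Pear1*-/- vehicle and 862, 871 and 811 in *Pear1*-/- bleo, where every library lay below every WT bleo library. The log2 fold change with bleo was -1.66 (standard error 0.0932, adjusted p = 1.02e-11) in WT and -2.13 (standard error 0.0944, adjusted p = 4.95e-13) in *Pear1*-/-.

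*Scara5* (ENSMUSG00000022032, chr14:65666403-65764826), a scavenger receptor that takes up ferritin, was the marker in which 1 library mattered most. It had 1061, 2589.5 and 987 normalized counts in WT vehicle, so replicate 2 was at 2.53 times the mean of the other two, and 2538, 2540.0 and 2744 in *Pear1*-/- vehicle. In WT bleo it had 216, 233 and 242 and in *Pear1*-/- bleo 355, 339.5 and 349, all far below every vehicle library. The log2 fold change with bleo was -2.74 (standard error 0.358, adjusted p = 0.000146) in WT and -2.90 (standard error 0.351, adjusted p = 0.000108) in *Pear1*-/-, and without WT vehicle replicate 2 the value in WT was -2.08 (adjusted p = 8.37e-32).

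*Dpp4* (ENSMUSG00000035000, chr2:62330073-62412231), the surface dipeptidyl peptidase also called CD26, was the weakest of the 8 markers per kilobase in vehicle. It had 319, 301 and 282 normalized counts in WT vehicle and 272, 275 and 293 in WT bleo, and these ranges overlapped. In *Pear1*-/- vehicle it had 312, 336 and 278, and in *Pear1*-/- bleo 201, 235 and 217, below every other library. The change with bleo, in log2, was -0.091 (standard error 0.0941, adjusted p = 0.402) in WT, with a 95% interval of -0.28 to 0.093, and -0.50 (standard error 0.0942, adjusted p = 0.000146) in *Pear1*-/-.

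Of the 2 Ly6 family markers, *Ly6a* (ENSMUSG00000075602, chr15:74994877-74998031), known as Sca-1, had 2504, 4535 and 2471 normalized counts in WT vehicle and 1732, 1714 and 1765 in WT bleo. It had 4246, 4389 and 4883 in *Pear1*-/- vehicle and 2580.4, 2445 and 2466 in *Pear1*-/- bleo. All *Pear1*-/- bleo libraries lay above WT bleo and close to WT vehicle replicates 1 and 3. The log2 fold change with bleo was -0.86 (standard error 0.201, adjusted p = 0.00373) in WT and -0.85 (standard error 0.200, adjusted p = 0.00435) in *Pear1*-/-. Without WT vehicle replicate 2, the value in WT was -0.44 (adjusted p = 2.17e-09).

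*Ly6c1* (ENSMUSG00000079018, chr15:75044018-75048830) was called in neither genotype. It had 531, 912 and 513 normalized counts in WT vehicle and 595, 556 and 603 in WT bleo, beside 877, 929 and 993 in *Pear1*-/- vehicle and 953, 869.9 and 906 in *Pear1*-/- bleo. The change with bleo, in log2, was -0.15 (standard error 0.178, adjusted p = 0.479) in WT and -0.032 (standard error 0.172, adjusted p = 0.882) in *Pear1*-/-, with 95% intervals of -0.50 to 0.20 and -0.37 to 0.31. Without WT vehicle replicate 2, the value in WT turned to 0.24 (adjusted p = 0.00466), so its direction in WT rests on that library. In that fit 76.4% of all genes were called, and the other markers had values in WT of -1.57 for *Pi16*, -1.06 for *Dpt*, -2.61 for *Clec3b* and -1.45 for *Cd34*, still called as lower, and of -0.024 (adjusted p = 0.833) for *Dpp4*. Its neighbour *Ly6c2* (ENSMUSG00000022584, chr15:75108158-75111970), known from monocytes, was lower with bleo in both genotypes, at -1.04 (adjusted p = 5.80e-09) in WT and -1.21 (adjusted p = 8.24e-10) in *Pear1*-/-. *Ly6e*, a further relative, was at a mean of 5742 ± 1559.6 (SD, n = 3) in WT vehicle and 6489 ± 257 in WT bleo, beside 8105 ± 701 in *Pear1*-/- vehicle and 6078 ± 195 in *Pear1*-/- bleo.

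The 2 Ly6c genes are shown in sequence because their near identity bears on how well their counts can be separated. Their coding sequences in the GENCODE annotation of GRCm38 are both 396 bases long and differ at 9 positions (97.7% identity), 6 of which fall in the first 120 bases, printed here 5′ to 3′ with the differing bases in capitals.
Ly6c1 coding start: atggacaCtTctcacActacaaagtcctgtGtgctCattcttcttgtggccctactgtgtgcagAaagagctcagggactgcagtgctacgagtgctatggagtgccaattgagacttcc
Ly6c2 coding start: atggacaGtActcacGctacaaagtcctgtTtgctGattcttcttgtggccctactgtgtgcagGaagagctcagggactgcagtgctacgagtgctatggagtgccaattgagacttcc
Of all windows of 50 bases along the longest *Ly6c1* transcript, 31.7% occur unchanged in *Ly6c2*, and of windows of 150 bases 5.61%. Reads from such stretches could have been split, dropped or assigned to either gene by the authors' counting, so the level of *Ly6c1* is uncertain to that extent. The stretches before their transcription starts differ more. The RefSeq start windows (GRCm38.p6, minus strand) were searched on both strands for 4 short motifs, the TATA box (TATAAA), the CCAAT box (letters as named), the GC box (GGGCGG) and the AP-1 motif (TGANTCA), and the 250 bases before the start are printed with matches in capitals.
Ly6c1 (chr15:75048838-75049087): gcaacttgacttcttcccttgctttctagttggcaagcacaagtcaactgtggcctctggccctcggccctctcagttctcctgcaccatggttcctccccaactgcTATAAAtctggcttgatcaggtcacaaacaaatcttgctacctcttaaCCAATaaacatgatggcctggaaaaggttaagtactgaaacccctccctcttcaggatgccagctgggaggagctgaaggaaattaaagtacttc
Ly6c2 (chr15:75111972-75112221): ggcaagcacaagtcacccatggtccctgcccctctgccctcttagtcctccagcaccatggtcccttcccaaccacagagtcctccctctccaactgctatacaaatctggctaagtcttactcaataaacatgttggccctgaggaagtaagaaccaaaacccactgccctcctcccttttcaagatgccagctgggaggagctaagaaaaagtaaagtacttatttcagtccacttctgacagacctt
In the *Ly6c1* window, TATAAA begins 143 bases and CCAAT 95 bases before the start, and in the *Ly6c2* window none of the 4 motifs was found. RefSeq holds a second window for each of the 2 genes, not printed, and neither held any of the 4, so the matches belong to the first *Ly6c1* window alone. Of 32851 RefSeq windows of 300 bases, 13.6% hold TATAAA and 37.4% hold CCAAT on either strand.

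**Figure D2:**
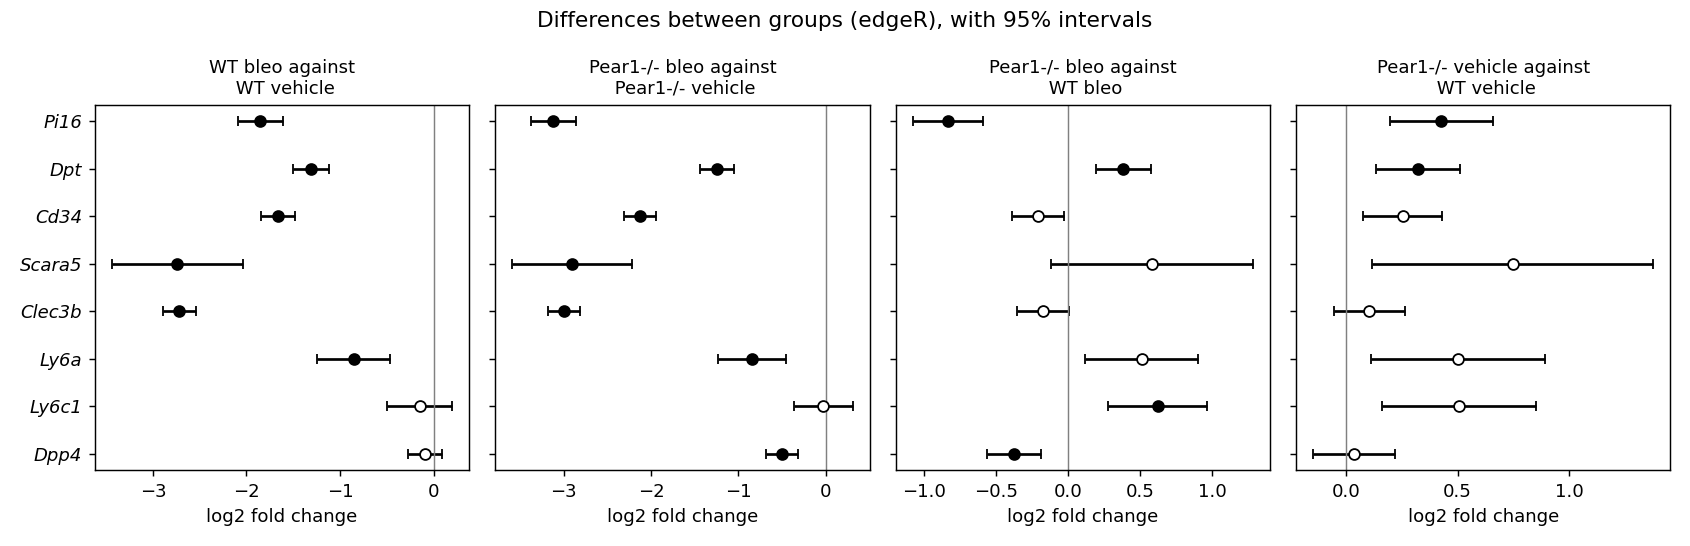
Log2 fold changes (horizontal axes, which differ in scale) of the 8 markers in 4 comparisons, from edgeR; bars are 95% intervals, filled points have an adjusted p under 0.05 and open points do not. With bleo, *Ly6c1* is open in both genotypes and *Dpp4* in WT, and between the bleo groups *Pi16* and *Dpp4* lie below 0 and *Dpt* and *Ly6c1* above it. Per 100 counts of *Pdgfra*, however, all 8 were lower in every *Pear1*-/- bleo library, as were 74.7% of all genes tested.

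The second question was how the bleo-treated genotypes differ. Between *Pear1*-/- bleo and WT bleo the markers' counts did not move one way: 4 of the 8 were called, of which *Pi16* and *Dpp4* were lower and *Dpt* and *Ly6c1* higher in *Pear1*-/-. Of all genes tested, 46.1% were called, 22.1% higher and 24.0% lower, so the markers' share was near the background. None of the 8 had a fold change above 2 as well, as 15.0% of all genes did. The median log2 difference of the 8 was 0.10, beside -0.013 for all genes. These directions hold for counts scaled to the library. Per 100 normalized counts of *Pdgfra*, which was itself higher in *Pear1*-/- bleo, all 8 were lower in every *Pear1*-/- bleo library than in every WT bleo library, as 74.7% of all genes tested were. *Dpt* and *Ly6c1* thus turn on that scale, *Dpt* to 118 ± 6.30 in WT and 88.6 ± 3.12 in *Pear1*-/- (SD, n = 3). *Ly6c1* had 44.1, 41.5 and 43.3 in WT and 39.7, 36.7 and 37.7 in *Pear1*-/-.

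*Pi16* had the widest gap on the log2 scale, from 859 ± 16.5 normalized counts (SD, n = 3) in WT bleo to 485 ± 33.9 in *Pear1*-/- bleo, a log2 difference of -0.84 (standard error 0.124, adjusted p = 4.05e-05). *Dpp4* was lower as well, by 0.38 on the log2 scale (adjusted p = 0.00313). *Dpt* was higher in *Pear1*-/- bleo by 0.38 (standard error 0.0971, adjusted p = 0.00325) and *Ly6c1* by 0.62 (standard error 0.175, adjusted p = 0.0129). The *Ly6c1* call depended on the libraries in the fit, since its adjusted p lay between 0.056 and 0.0786 without any 1 of WT bleo replicates 1, 2 and 3 or *Pear1*-/- bleo replicates 1 and 3, and *Dpt* had adjusted p = 0.0503 without WT bleo replicate 3. The other 4 differences were -0.21 (adjusted p = 0.0735) for *Cd34*, -0.17 (adjusted p = 0.131) for *Clec3b*, 0.51 (adjusted p = 0.0624) for *Ly6a* and 0.58 (adjusted p = 0.221) for *Scara5*. The fit shares 1 estimate of spread over all 12 libraries, and where WT vehicle replicate 2 was left out of it, *Cd34*, *Ly6a* and *Scara5* were called too, with adjusted p = 0.000969, 3.15e-12 and 6.86e-09, so that 7 of the 8 passed, against 49.2% of all genes.

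Without bleo, the genotypes were compared in the vehicle groups. All 8 markers had a higher mean in *Pear1*-/- vehicle than in WT vehicle, but only 2 passed the test, *Pi16* with 0.43 (standard error 0.119, adjusted p = 0.0435) and *Dpt* with 0.32 (standard error 0.0961, adjusted p = 0.0485). Of all genes tested, 7.24% were called here, 1.95% as higher. The ranges of the vehicle groups overlapped for 7 markers, as they did for 80.8% of all genes, and were separate for *Dpt*. In 6 of the 7 WT vehicle replicate 2 alone lay in the *Pear1*-/- vehicle range, and in *Dpp4* all 3 WT vehicle libraries did. Replicate 2 was inside that range for 7 of the 8 markers, against 57.8% of all genes, and just under it for *Dpt*. Replicates 1 and 3 both lay below every other vehicle library for 7 of the 8, against 28.6% of all genes.

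Without WT vehicle replicate 2, 7 of the 8 markers were higher in *Pear1*-/- vehicle, against 25.5% of all genes called higher (55.3% in either direction). *Scara5* then had a log2 difference of 1.42 (adjusted p = 2.05e-26), *Ly6a* of 0.92 (adjusted p = 6.02e-20), *Ly6c1* of 0.90 (adjusted p = 4.09e-15), *Pi16* of 0.71 (adjusted p = 1.13e-14) and *Dpt* of 0.58 (adjusted p = 3.06e-13). *Cd34* followed with 0.48 (adjusted p = 4.26e-10) and *Clec3b* with 0.22 (adjusted p = 0.00482), and *Dpp4* was at 0.11 (adjusted p = 0.337). Leaving out any other library instead gave 0 calls among the 8 in edgeR's test, and the 2 calls made with all libraries had adjusted p of 0.0435 and 0.0485, close to the threshold. With all libraries, 6 of the 8 had an unadjusted p under 0.05, as did 31.4% of all genes, and DESeq2's Wald test called 3, against 8.54% of all genes.

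Whether the response to bleo itself differed between genotypes was tested as an interaction, the log2 response in *Pear1*-/- minus that in WT. It was called for 3 of the 8 markers, all with a negative value. These were *Pi16* at -1.27 (standard error 0.172, adjusted p = 3.12e-05), *Cd34* at -0.46 (standard error 0.129, adjusted p = 0.00859) and *Dpp4* at -0.41 (standard error 0.133, adjusted p = 0.021). In *Pi16* and *Cd34* the decrease was stronger in *Pear1*-/-, while *Dpp4* was not called with bleo in WT (-0.091, adjusted p = 0.402). Of all genes tested, 37.1% were called, 19.3% with a negative value, so the share of markers called was near the background. For *Pi16* the value corresponds to a decrease deeper by a factor of 2.40, the largest among the 8. The other 5 markers had values of -0.28 (adjusted p = 0.0834) for *Clec3b*, -0.16 (adjusted p = 0.827) for *Scara5*, 0.060 (adjusted p = 0.767) for *Dpt*, 0.0083 (adjusted p = 0.999) for *Ly6a* and 0.12 (adjusted p = 0.751) for *Ly6c1*. The interaction uses all 4 groups and so shares its libraries with the comparisons above. *Pi16*, *Cd34* and *Dpp4* remained called when any 1 of the 12 libraries was left out, and without WT vehicle replicate 2 all 8 were called with a negative value, against 26.0% of all genes. *Dpt* was then at -0.20 (adjusted p = 0.0196), *Ly6a* at -0.42 (adjusted p = 7.78e-06) and *Ly6c1* at -0.29 (adjusted p = 0.0125), where the value with all libraries had been above 0, while *Scara5* was at -0.84 (adjusted p = 4.06e-10), *Clec3b* at -0.40 (adjusted p = 0.00217) and *Cd34* at -0.69 (adjusted p = 8.78e-11).

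The RefSeq start windows (GRCm38.p6) of *Cd34* and *Dpp4*, which were also called in the interaction, are given for their sequence. The 250 bases before the start are printed 5′ to 3′, with matches to the 4 motifs in capitals.
Cd34 (chr1:194938571-194938820, plus strand): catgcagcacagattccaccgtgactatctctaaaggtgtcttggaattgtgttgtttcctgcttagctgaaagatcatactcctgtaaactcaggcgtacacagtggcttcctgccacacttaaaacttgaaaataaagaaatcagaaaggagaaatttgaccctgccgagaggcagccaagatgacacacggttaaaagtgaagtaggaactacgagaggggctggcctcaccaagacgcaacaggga
Dpp4 (chr2:62412232-62412481, minus strand): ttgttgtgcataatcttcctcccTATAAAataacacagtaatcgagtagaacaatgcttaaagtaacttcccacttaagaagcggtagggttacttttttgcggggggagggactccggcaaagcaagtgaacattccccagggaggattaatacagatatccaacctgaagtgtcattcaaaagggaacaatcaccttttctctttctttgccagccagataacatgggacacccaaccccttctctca
The *Cd34* window held none of the 4 motifs, and the *Dpp4* window held TATAAA beginning 227 bases before the start. Windows were found for 5 of the 8 markers, *Pi16*, *Dpt*, *Cd34*, *Ly6c1* and *Dpp4*. In *Pi16*, whose RefSeq start lies inside the longer gene of the GENCODE annotation and is not printed, CCAAT began 64 bases before the start. The *Dpt* window, also not printed, held TATAAA beginning 13 bases after the start.

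Since *Pdgfra* itself fell with bleo, the markers were also expressed per 100 normalized counts of *Pdgfra* in the same library, as a description. On this scale *Pi16* was at 69.5 ± 22.0 in WT vehicle and 63.2 ± 0.488 in WT bleo (SD, n = 3), *Cd34* at 68.8 ± 17.2 and 71.4 ± 4.91, and *Dpt* at 89.1 ± 25.1 and 118 ± 6.30. The overlap of WT vehicle with WT bleo in these 3 came from WT vehicle replicate 2. The means of replicates 1 and 3 were 56.8, 58.9 and 74.6, and both replicates lay below every WT bleo library, so that without replicate 2 all 3 were higher in WT bleo on this scale. The same held for 6 of the 8 markers and for 79.6% of all genes, so the count is not above the background. In *Pear1*-/-, where *Pdgfra* fell less, *Pi16*, *Cd34* and *Dpt* had lower means in bleo on this scale. The share of all genes lower with bleo on this scale was not computed for *Pear1*-/-. *Pi16* was at 101 ± 9.41 in vehicle and 20.3 ± 1.48 in bleo, *Cd34* at 89.1 ± 0.914 and 35.5 ± 1.53, and *Dpt* at 121 ± 2.33 and 88.6 ± 3.12. *Clec3b* and *Scara5* were lower in bleo in both genotypes, *Clec3b* at 39.4 ± 5.02 in WT vehicle and 19.8 ± 0.881 in WT bleo, beside 46.4 ± 4.82 in *Pear1*-/- vehicle and 10.1 ± 0.892 in *Pear1*-/- bleo. *Ly6c1* was higher in bleo than in vehicle on this scale, at 14.6 ± 6.21 in WT vehicle and 43.0 ± 1.33 in WT bleo, and so was *Dpp4*, at 6.61 ± 0.596 and 20.6 ± 0.412. In *Pear1*-/- the values lay closer together, *Ly6c1* from 22.4 ± 1.54 in vehicle to a mean of 38.0 in bleo and *Dpp4* from 7.40 ± 0.625 to 9.10 ± 0.776. *Ly6a*, called lower with bleo on the library scale, turned as well, at 70.9 ± 32.2 in WT vehicle (highest library 108) and 128 ± 1.01 in WT bleo (lowest library 127), while in *Pear1*-/- it was at 108 ± 8.86 and 104 ± 2.60, with overlapping ranges. *Scara5* was at 34.9 ± 23.2 in WT vehicle, or 21.5 without replicate 2, and 16.9 ± 0.785 in WT bleo. With 3 libraries a group an exact permutation test could not go below p = 0.1, so none is given.

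**Figure D3:**
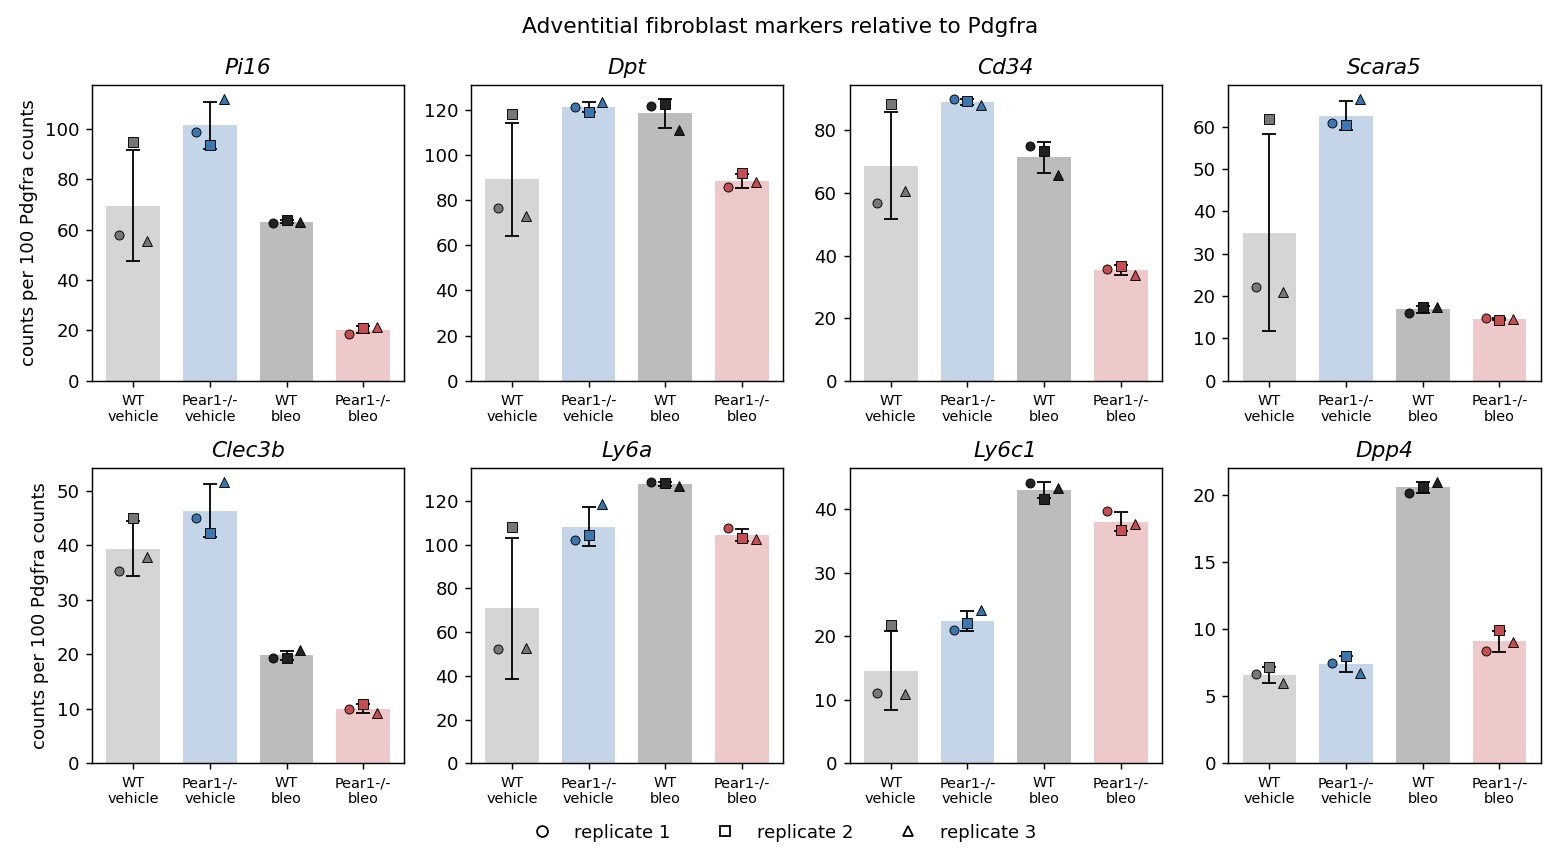
Counts of each marker per 100 counts of *Pdgfra* in the same library (vertical axis, from 0) in the 4 groups; points are libraries, bars are means and error bars are SD (n = 3). *Pi16* lies between 55.7 and 94.9 in WT vehicle, between 62.8 and 63.7 in WT bleo and between 18.6 and 21.3 in *Pear1*-/- bleo. In each panel the 3 *Pear1*-/- bleo libraries lie below the 3 of WT bleo, as they do for 74.7% of all genes tested.

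A broader list of 20 other genes of adventitial fibroblasts was examined beside the 8 markers. Like the 8, it was chosen with earlier results of these data known, so it is not an independent check. With bleo, 18 of the 20 were lower and 1 was higher in WT, with a median log2 fold change of -1.67, and 17 were lower and 3 higher in *Pear1*-/-, with a median of -2.02, against 36.5% and 33.1% of all genes lower in the 2 genotypes. Leaving out WT vehicle replicate 2, 17 were lower and 2 higher in WT. The largest decreases in WT were those of *Pcolce2*, which enhances the trimming of procollagen, at -3.12 (adjusted p = 1.08e-14), of *Has1*, a hyaluronan synthase, at -2.80 (adjusted p = 0.000427), and of *Ccl11*, the chemokine eotaxin, at -2.74 (adjusted p = 0.000142). With that library left out, *Has1* was at -1.99 (adjusted p = 4.01e-30) and *Ccl11* at -2.12 (adjusted p = 3.96e-26), and the largest decreases were those of *Pcolce2*, *Adh7* and *Igfbp6*, an insulin-like growth factor binding protein, at -3.20 (adjusted p = 3.95e-46), -2.54 (adjusted p = 7.96e-36) and -2.51 (adjusted p = 1.64e-41). In *Pear1*-/- they were those of *Adh7*, an alcohol dehydrogenase that handles retinol, at -4.20 (adjusted p = 1.67e-16), of *Ebf2*, a transcription factor, at -3.24 (adjusted p = 1.47e-07), and of *Has1* at -3.23 (adjusted p = 0.000205). *Anxa3*, an annexin, rose in both, by 1.96 (adjusted p = 5.76e-15) in WT and 1.19 (adjusted p = 1.40e-11) in *Pear1*-/-. *Cd248*, the stromal surface protein endosialin, and *Mfap5*, a microfibril protein, rose in *Pear1*-/- at 1.13 (adjusted p = 1.00e-07) and 0.40 (adjusted p = 0.000101), and in WT their values were 0.10 (adjusted p = 0.426) and -0.23 (adjusted p = 0.00766). Both calls in WT changed when WT vehicle replicate 2 was left out, with *Cd248* at 0.34 (adjusted p = 7.24e-05) and *Mfap5* at -0.091 (adjusted p = 0.141).

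Between the bleo groups, 5 of the 20 were higher and 6 lower in *Pear1*-/-, with a median of 0.18, near the shares of all genes (22.1% higher and 24.0% lower). Higher were, among others, *Cd248*, which went from 937 ± 20.6 normalized counts (SD, n = 3) in WT bleo to 2270.3 ± 55.2 in *Pear1*-/- bleo, at 1.26 (adjusted p = 4.61e-08), *Sema3c*, a secreted guidance protein, at 0.90 (adjusted p = 2.19e-06), and *Mfap5* at 0.82 (adjusted p = 2.44e-08). Lower were *Adh7* at -1.32 (adjusted p = 8.61e-09), *Col14a1*, a fibril-associated collagen, at -1.08 (adjusted p = 2.55e-09), and *Cd55*, a complement regulator, at -1.08 (adjusted p = 2.90e-07). In the interaction, 4 of the 20 were called with a positive value and 6 with a negative one, where 37.1% of all genes were called, led by *Cd248* at 1.03 (adjusted p = 5.95e-05) and by *Adh7* at -1.51 (adjusted p = 9.94e-08). In the vehicle groups 1 of the 20 was called, *Pcolce2*, lower in *Pear1*-/- at -0.38 (adjusted p = 0.0363) (7.24% of all genes were called), whereas without WT vehicle replicate 2 it was 17 of the 20, 16 of them higher (55.3% of all genes called, 25.5% higher). It was 0 without any other 1 library or with the 2 groups alone in edgeR's test, and 9 with no filter. Without WT vehicle replicate 2 the interaction was called with a positive value in 3 and with a negative one in 13 of the 20 (26.0% of all genes were called with a negative value), and the bleo groups differed in 16, of which 9 were higher in *Pear1*-/- (49.2% of all genes called).

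**Figure D4:**
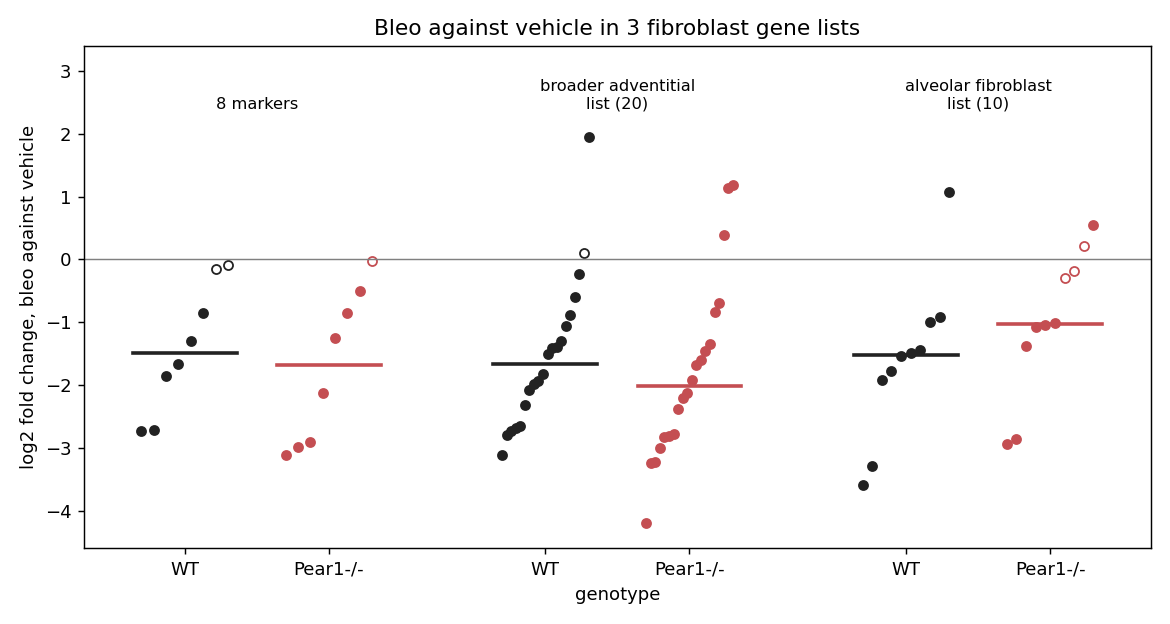
Log2 fold changes between bleo and vehicle (vertical axis) of the genes of 3 lists in WT (black) and *Pear1*-/- (red); each point is a gene, filled where the adjusted p was under 0.05, and horizontal lines are list medians. The medians lie between -2.02 and -1.03, and each list has genes above 0 except the 8 markers.

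Markers of alveolar fibroblasts were lower with bleo as well. Of 10 such genes, 9 were lower and 1 higher in WT, with a median log2 fold change of -1.52, and 6 were lower and 1 higher in *Pear1*-/-, with a median of -1.03. Of all genes, 36.5% were lower in WT and 33.1% in *Pear1*-/-, where 62.2% were called in either direction. *Inmt*, a methyltransferase, was at -3.29 (adjusted p = 9.06e-17) in WT and -2.94 (adjusted p = 6.82e-16) in *Pear1*-/-, and *Slc7a10*, an amino acid transporter, at -3.59 (adjusted p = 1.57e-08) and -2.86 (adjusted p = 7.38e-07). *Plin2*, which coats lipid droplets, was the gene that rose, at 1.08 (adjusted p = 2.96e-10) and 0.54 (adjusted p = 4.46e-06). Between the bleo groups 1 of the 10 was called, *Plin2*, lower in *Pear1*-/- at -0.44 (adjusted p = 7.21e-05), and 4 without WT vehicle replicate 2, of which 2 were lower, against 46.1% and 49.2% of all genes. Between the vehicle groups 3 were lower in *Pear1*-/-, and without that library 8 were lower and 1 higher, against 7.24% and 55.3% of all genes called. None was called without any 1 of WT vehicle replicates 1 and 3 or the 3 *Pear1*-/- vehicle libraries, or with the 2 groups alone. In the vehicle groups the 2 lists lay in opposite directions, with summed normalized counts of the 8 adventitial markers of 14927 to 22867 in WT vehicle and 22657 to 24376 in *Pear1*-/- vehicle, and of the 10 alveolar markers of 36750.5 to 50599 and 34632 to 38315. WT vehicle replicate 2 had the highest adventitial sum of its group, 22867, and the lowest alveolar sum, 36750.5.

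Markers of other cells were present in these sorted libraries and moved with the groups, and their part in the results was not tested. The summed normalized counts of 12 leukocyte genes were 24062 to 33094 in WT and 32563 to 34942 in *Pear1*-/- mice given vehicle, and 121499 to 123347 in WT and 58119.6 to 59662 in *Pear1*-/- mice given bleo. Of the 12, 9 were higher and 2 lower with bleo in WT, against 31.4% and 36.5% of all genes. Among *Pear1*-/- mice 6 were higher and 3 lower (33.1% of all genes were lower). Lower in both genotypes were *Cd3e*, a T cell receptor subunit gene, at -0.75 (adjusted p = 0.000119) in WT and -1.58 (adjusted p = 1.33e-08) in *Pear1*-/-, and *Nkg7*, of cytotoxic lymphocytes, at -1.54 (adjusted p = 1.04e-05) and -3.14 (adjusted p = 1.67e-08). The summed counts of 12 endothelial genes, a cell type that also makes *Cd34*, *Ly6a* and *Ly6c1*, were 4729 to 5438, 5319 to 5870.2, 2949 to 3093 and 3147 to 3385 in the same order. With bleo 10 of the 12 were lower in WT, against 36.5% of all genes, and 8 were lower and 2 higher in *Pear1*-/- (33.1% of all genes lower). Between the bleo groups, 6 were higher and 2 lower in *Pear1*-/- bleo than in WT bleo (22.1% and 24.0% of all genes). *Pecam1*, the endothelial CD31 gene, had 912 ± 102, 1019 ± 30.8, 623 ± 30.4 and 598 ± 13.5 normalized counts (SD, n = 3). *Ptprc*, the leukocyte CD45 gene, had 3303 ± 479, 3818 ± 263, 7616 ± 97.8 and 3365 ± 109. The summed counts of 10 epithelial genes were 42055 to 60531, 57342 to 66582, 16005 to 16226 and 6892 to 7069. In the same order, those of 6 mesothelial genes were 679.9 to 879, 611 to 666, 283 to 298 and 481 to 503. Those of 8 pericyte and smooth muscle genes were 1978 to 2088, 2104 to 2209, 833 to 904 and 1127 to 1207. Those of 7 general fibroblast genes, collagen genes among them, were 117363 to 140944, 140949 to 144228, 108118 to 109160.0 and 286729 to 296191. *Col1a1*, which encodes a chain of type I collagen, was higher in *Pear1*-/- bleo than in WT bleo by 1.73 (adjusted p = 4.15e-14). No gene of these lists was at or under the floor in every library of a group. Per 100 counts of *Pdgfra*, *Pecam1* was at 20.2 ± 3.82 in WT vehicle, against 45.8 ± 2.70 in WT bleo and 25.0 ± 0.735 for *Pear1*-/- bleo.

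Finally, the gene outside the 8 whose profile over the 12 libraries was most like that of each marker was found by the root mean square difference of centred log2(normalized count + 1) among 9585 genes with a mean of at least 100 normalized counts. These points share libraries and groups, so the distances are a description. *Pi16* was nearest to *Fbln1*, which encodes the matrix protein fibulin-1 and belongs to the broader list, at 0.130. *Scara5* was nearest to *Ccl11*, also of that list, at 0.0782. *Dpt* was nearest to *Egfr*, the epidermal growth factor receptor gene, at 0.0753, *Cd34* to *Heyl* at 0.106, and *Clec3b* to *Gstm1*, a glutathione transferase, at 0.0960. *Ly6a* was nearest to *Stx11* at 0.0978, *Ly6c1* to *Tmem120a* at 0.0701 and *Dpp4* to *Pde4dip* at 0.0700. Among the 8 themselves the closest profiles were those of *Dpt* and *Ly6a*, at 0.264, and of *Pi16* and *Clec3b*, at 0.352.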

How the data were processed

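Pdgfra+ lung cells of 4 groups were profiled by bulk RNA-seq with SMART-Seq v4 full-length cDNA and paired reads. Per the study's methods the authors aligned the reads with HISAT2 to GRCm38 (the submitters' processing notes name FastQC, GRCm38 and mm10); the counting program is not given in the sources used here, and the kit does not mark strand. The authors deposited raw read counts per gene for 40760 genes, and a second table of the same counts divided by DESeq2 size factors, used here as the normalized signal. The genes *Gm32569*, *Gm16897* and *Gm13561* lie antisense to *Dpt*, *Cd34* and *Dpp4*, with 17, 135 and 41 counts in all 12 libraries together.

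The counts were tested with edgeR 4.0.16 (R 4.3.3): filterByExpr, TMM, robust dispersions, 1 mean per group over all 12 libraries, two-sided quasi-likelihood tests and Benjamini-Hochberg adjustment over 17418 genes. A gene was called at an adjusted p under 0.05, and the study's further criterion was a fold change above 2. A standard error is the log2 fold change divided by the square root of edgeR's F, and 95% intervals use the normal quantile. Alternatives were RLE scaling, no filter, DESeq2 1.42.0, limma 3.58.1 with a pseudocount of 1, the 2 groups alone, the replicate number as a block, each library left out and, added after the data were seen, no robust estimation. The 8 markers and all gene lists were chosen with earlier results of these data known; named genes of the lists are the up to 3 largest called changes in each direction, and *Cd248* and *Mfap5* keep their names in the other comparisons. *Igfbp6*, *Cd3e*, *Nkg7* and *Col1a1* were named after their values were seen.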

Additional observations from a re-analysis of the deposited data

Results flagged for a closer look

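The response to bleo differed between genotypes in 3 of the 8 markers, as tested by the interaction in edgeR, a share near that of all genes called in this test (37.1%). The log2 response in *Pear1*-/- minus that in WT was -1.27 for *Pi16*, -0.46 for *Cd34* and -0.41 for *Dpp4*, with adjusted p = 3.12e-05, 0.00859 and 0.021. In *Pi16* the bleo response was -1.85 in WT and -3.12 in *Pear1*-/-, in *Cd34* -1.66 and -2.13, and in *Dpp4* -0.091 and -0.50. Without WT vehicle replicate 2 the 3 values were -1.56 (adjusted p = 5.00e-22), -0.69 (adjusted p = 8.78e-11) and -0.50 (adjusted p = 0.00158). Leukocyte genes, which were higher in WT bleo than in *Pear1*-/- bleo, and *Pdgfra*, which was lower there, differed between the same groups, and their part in these differences was not tested.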

How the results depend on the processing

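With bleo, 6 markers in WT and 7 in *Pear1*-/- were called under every alternative except that without WT vehicle replicate 2 the number in WT was 7 (range over libraries left out 6 to 7); there *Ly6c1* became higher, at 0.24 (adjusted p = 0.00466), and its range was -0.29 to 0.24. Between the bleo groups 4 were called, 7 with the 2 groups alone, and 2 to 7 with 1 library left out (2 without WT bleo replicate 3, 7 without WT vehicle replicate 2). Between the vehicle groups 2 were called, 1 with RLE scaling, 4 with no filter, 0 with no robust estimation, 0 with the 2 groups alone, and 0 to 7 with 1 library left out (7 without WT vehicle replicate 2, 0 without any other); the cause was not tested. The interaction was called in 3, and in 3 to 8 with 1 library left out. Some values near 0 changed sign: with no filter, *Dpp4* in WT bleo against vehicle became 0.042, *Ly6c1* in *Pear1*-/- 0.019, and the interaction of *Dpt* -0.011 and of *Ly6a* -0.053; with limma the latter was -0.043. With 1 library left out, *Ly6c1* in *Pear1*-/- ranged over -0.097 to 0.0027, *Dpp4* between the vehicle groups over -0.0057 to 0.14, and the interaction over -0.20 to 0.16 for *Dpt*, -0.42 to 0.16 for *Ly6a*, -0.29 to 0.26 for *Ly6c1* and -0.84 to 0.074 for *Scara5*. With no filter, the median log2 fold change of all genes between WT bleo and WT vehicle moved from -0.07 to -1.48.

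Libraries with the same replicate number did not deviate together (correlations of their deviations from the group means -0.155 to 0.103 over 18 pairs, median -0.00504), so the numbers were not taken as a pairing. With the replicate block, the counts of called markers were 6, 7, 4, 2 and 3 in the 5 tests, as without it, and the interaction of *Ly6a* was -0.019.

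With 3 libraries a group and no record of animals, the intervals hold for these libraries. Depth did not limit the 8 markers, whose counts were all far above the floor.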
